A study of Mus musculus with 2 samples.

Results

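The genes of cholesterol synthesis and transport were described in the forebrain of the mouse embryo, as 32 genes chosen by name from the pathway: 18 enzymes of synthesis, 5 genes of the control of synthesis, 2 genes of esterification and turnover, and 7 genes of transport and export. They are 32 of the 43346 mouse genes in the tables, and the rule that lists them uses no measured value. The 18 enzymes are those analysed here and not every enzyme of the pathway. The material was forebrain of B6NCrl embryos of mixed sex at embryonic day 15.5, in a single group of 2 libraries. Tissue of 78 embryos was pooled for replicate 1 and of 62 other embryos for replicate 2, and each library used 10 ng of RNA longer than 200 nucleotides with spike-in transcripts. There was no treatment, mutant or other age in these samples, so each value below is a level in this tissue or a difference between the pools.

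Cholesterol is built from acetyl-CoA. The mevalonate steps make isoprene units and join them into farnesyl pyrophosphate, the squalene steps join a pair of farnesyl units and close the rings to give lanosterol, and the sterol steps turn lanosterol into cholesterol. The transcription factor SREBP-2 is kept in the endoplasmic reticulum by its escort SCAP and the INSIG proteins while sterols are plentiful, and is released to activate the synthesis genes when sterols fall. The brain makes nearly all of its own cholesterol, since lipoproteins of the blood do not cross the mature blood-brain barrier, and it moves cholesterol between cells on particles that carry apolipoprotein E.

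Depth was 38720511 expected counts for replicate 1 and 35103430 for replicate 2, of which the 32 genes took 0.376% and 0.373% of the reads on genes. Of the telencephalic markers, Emx1 had 57.2 TPM in replicate 1 and 65.2 TPM in replicate 2 (TPM is a level scaled to library size and corrected for transcript length), Emx2 had 12.3 and 16.5 TPM, and Lhx2 had 75.6 and 91.9 TPM, while the 4 posterior Hox markers summed to 0.10 and 0.00 TPM. The libraries were of whole tissue. Radial glial markers summed to 2048 and 1899 TPM, neuronal markers to 3622 and 3535 TPM, red cell markers to 11327 and 10379 TPM and microglial markers to 80.8 and 80.0 TPM. In such bulk RNA, more cells of a type and more RNA per cell cannot be told apart. The pools differed in choroid plexus markers, which summed to 821 TPM in replicate 1 and 365 TPM in replicate 2 with 4 of 5 detected, and in liver markers, which summed to 1.54 and 9.63 TPM with 1 of 3 detected. No difference was tested, since an exact permutation test on 2 libraries of 1 group cannot give a two-sided p below 0.5. Differences are set beside the SD of the libraries, which measures the spread between these pools only.

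The synthesis genes are known to be switched on through their promoters, so the promoter sequence of the most abundant member is shown first. Hmgcs1 encodes HMG-CoA synthase, an early enzyme of the mevalonate steps. The windows printed here are 300 bases of RefSeq sequence on build GRCm38.p6, running from 250 bases before an annotated start to 50 bases after it, 5′ to 3′ on the strand of the gene. The capitals mark 3 motifs, searched on both strands: TCACNCCAC, a form of the sterol regulatory element that SREBP binds, CCAAT, the core of the NF-Y site, which reads ATTGG on the other strand, and GGGCGG, the GC box of Sp1, which reads CCGCCC on the other strand. The Hmgcs1 window lies at chr13:119690101-119690400 on the plus strand. The Mvk window, shown for its row of CCAAT boxes, lies at chr5:114444019-114444318 on the plus strand, and Mvk encodes mevalonate kinase.
Hmgcs1: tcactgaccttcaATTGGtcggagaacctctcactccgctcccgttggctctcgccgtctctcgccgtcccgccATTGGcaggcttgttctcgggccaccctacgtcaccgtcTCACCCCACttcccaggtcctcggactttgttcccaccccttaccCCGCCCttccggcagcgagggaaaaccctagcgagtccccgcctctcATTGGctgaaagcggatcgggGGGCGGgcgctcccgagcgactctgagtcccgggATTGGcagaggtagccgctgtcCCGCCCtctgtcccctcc
Mvk: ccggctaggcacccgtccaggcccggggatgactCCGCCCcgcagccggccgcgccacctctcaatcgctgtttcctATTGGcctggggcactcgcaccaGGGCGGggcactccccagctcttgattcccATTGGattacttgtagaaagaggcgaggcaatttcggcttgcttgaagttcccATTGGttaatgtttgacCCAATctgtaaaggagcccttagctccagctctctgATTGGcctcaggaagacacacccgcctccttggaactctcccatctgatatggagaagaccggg
The Hmgcs1 window held 1 sterol regulatory element, centred 133 bases before the start, 4 CCAAT boxes and 3 GC boxes. The Mvk window held 5 CCAAT boxes, centred 171, 118, 65, 48 and 12 bases before the start, with 2 GC boxes and no exact sterol regulatory element.

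RefSeq windows were present for 27 of the 32 genes, 38 windows in all, and for 15 of the 18 synthesis enzymes. Fdps, Fdft1, Sqle, Abcg1 and Npc1 are named only. A CCAAT box was found in the windows of 14 of these 15 enzymes (93.3%), all except Acat2, against 43.5% of 10175 protein-coding genes detected in the tissue and 41.1% of all 27025 genes in the promoter table. A GC box was found in 14 of the 15 (93.3%), all except Pmvk, against 70.1% of the detected genes and 38.2% of all genes. The exact sterol regulatory element was found in the window of 1 of the 15 (6.67%), Hmgcs1, against 1.38% of the detected genes, and with 1 mismatch allowed in 7 of 15 (46.7%) against 29.2%. The median GC content of the windows was 60.3% for the synthesis enzymes and 61.3% for the detected genes, with 1.2 and 1.29 windows per gene. The 15 enzymes held 32 CCAAT boxes, of which 23 were on the strand opposite the gene. Of the 32 boxes, 22 were centred within 120 bases before the start, with a median distance of 53 bases. Strand and position were not counted for the detected genes, so these values do not set the enzymes apart. Among the 5 transport and export genes with a window, 1 had a CCAAT box (Npc2) and 2 had a GC box (Abca1 and Npc2). With 1 mismatch allowed, 2 of these 5 had a sterol regulatory element. The boxes were not particular to the enzymes. A CCAAT box was in 4 of 5 control genes, 2 of 2 esterification and turnover genes and 5 of 7 fatty acid synthesis genes. A GC box was in 5 of 5, 2 of 2 and 3 of 7 of these. The control genes had 2 windows per gene. Among them, Insig2 had CCAAT boxes only in the window at its first annotated start, whose transcripts had 0 reads in both libraries. These matches describe the letters of the windows, and binding was not measured.

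All 32 genes were at 1 TPM or more in both libraries, where 60.6% of 21474 protein-coding genes were. At 10 TPM or more there were 29 of the 32 genes, against 40.9% of protein-coding genes, and at 100 TPM or more there were 8 of the 32 genes, against 7.55%. The 18 synthesis enzymes were all at 10 TPM or more in both libraries, with a median of 62.2 TPM, and 6 of them were at 100 TPM or more: Hmgcs1, Fdps, Acat2, Sqle, Fdft1 and Msmo1. The other genes at that level were Srebf2 and Apoe. The 3 genes below 10 TPM in at least 1 library were Soat1, Abca1 and Nr1h3. From the highest gene, Hmgcs1, to the lowest, Nr1h3, the mean level differed 157-fold.

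**Figure D1:**
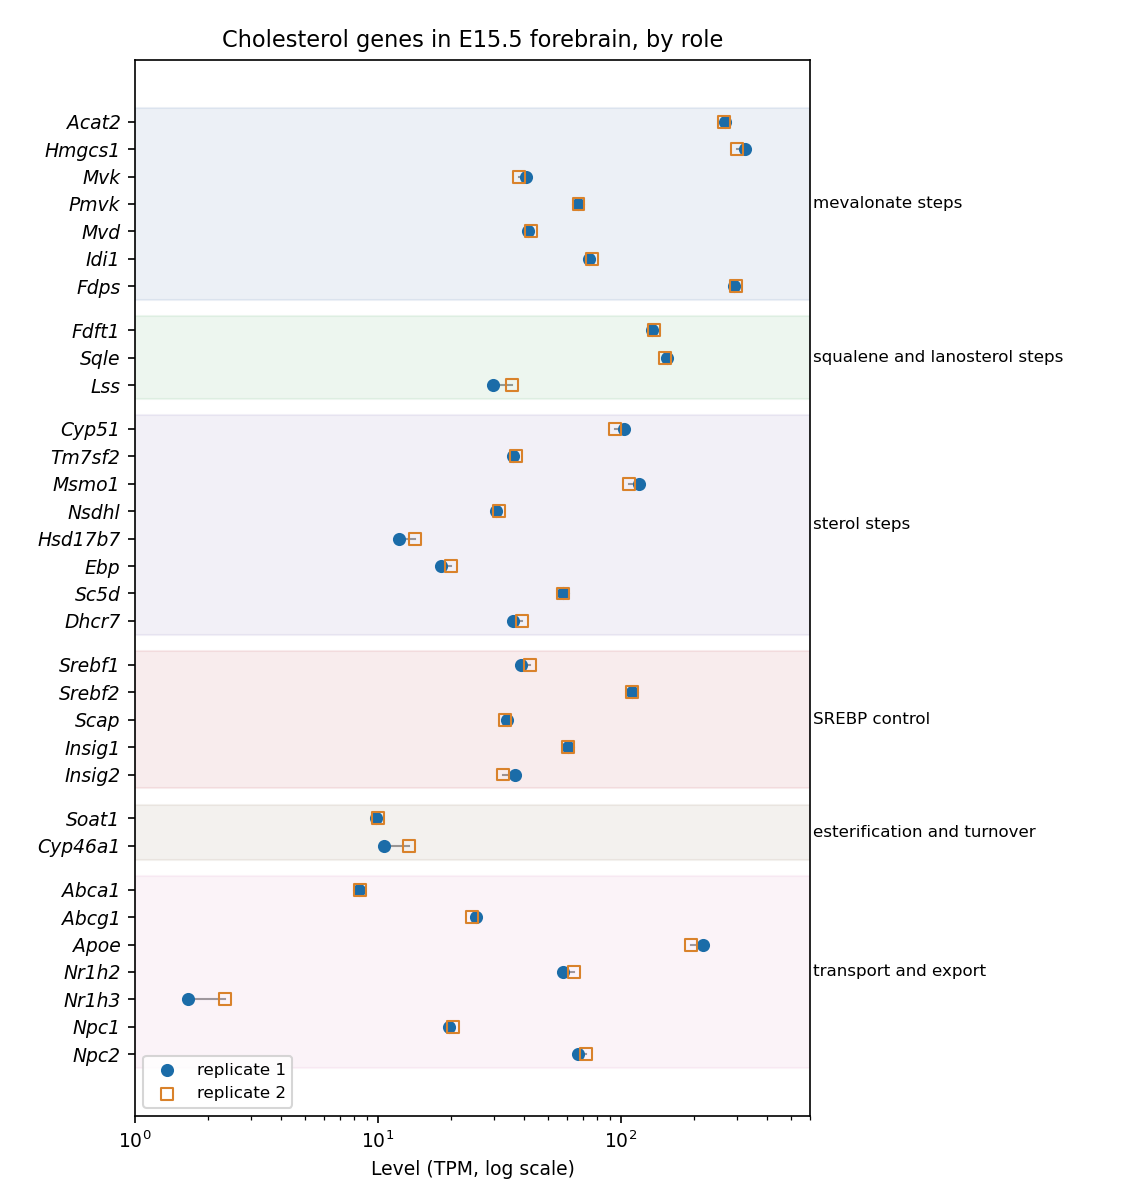
Level of each of the 32 genes (TPM, log scale) in replicate 1 (filled circles) and replicate 2 (open squares), grouped by role. The paired points of most genes lie close together, Hmgcs1 is highest at 325 and 301 TPM, and Nr1h3 is lowest at 1.65 and 2.34 TPM.

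The mevalonate steps held the 3 most abundant synthesis genes. Acat2, which encodes the cytosolic thiolase that joins acetyl-CoA units, had 267 TPM in replicate 1 and 266 TPM in replicate 2. Hmgcs1 had 325 and 301 TPM, a mean of 313 ± 16.6 TPM (SD, n = 2), higher than 96.8% of the detected protein-coding genes, on 23831 and 20310 reads. Fdps, which encodes the synthase of farnesyl pyrophosphate, had 292 and 297 TPM. These 3 genes held 48.1% and 47.7% of the summed TPM of the 18 enzymes. The other 4 members of the mevalonate steps were lower. Mvk had 40.8 and 38.0 TPM, and Pmvk, the phosphomevalonate kinase, had 66.3 and 66.9 TPM. Mvd, the decarboxylase that yields isopentenyl pyrophosphate, had 41.6 and 42.6 TPM, and Idi1, the isomerase of that product, had 73.6 and 75.8 TPM. The ranges of the libraries did not overlap between the 3 high genes and the other 4, and the mevalonate steps had a median of 74.7 TPM.

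Of the squalene and lanosterol steps, 2 of 3 genes were above 100 TPM. Fdft1, squalene synthase and the first enzyme committed to sterols, had 134 and 137 TPM. Sqle, squalene epoxidase, had 155 and 152 TPM. Lss, the lanosterol synthase that closes the rings, was lower, at 29.8 and 35.6 TPM in total, and at 16.4 and 17.95 TPM when only its protein-coding transcripts were summed.

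The sterol steps after lanosterol had a median of 37.0 TPM over 8 genes. Msmo1, a C4 methyl sterol oxidase, had 118 and 108 TPM, and Cyp51, the lanosterol demethylase, had 103 and 94.5 TPM. Sc5d, a sterol desaturase, had 57.6 and 57.8 TPM. Dhcr7, the reductase that acts on 7-dehydrocholesterol, had 36.0 and 39.1 TPM, Tm7sf2, a sterol reductase, had 35.8 and 37.1 TPM, and Nsdhl, a dehydrogenase of C4 demethylation, had 30.6 and 31.4 TPM. Ebp, the sterol isomerase, had 18.2 and 20.0 TPM. Hsd17b7, the keto-reductase of C4 demethylation, was the lowest of the 18 enzymes at 12.2 and 14.2 TPM. Hmgcs1 exceeded it 23.8-fold by mean level, 26.7-fold in replicate 1 and 21.2-fold in replicate 2.

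Set side by side on the scale of log2(TPM + 0.1), the median of the 10 mevalonate and squalene enzymes was 1.44 ± 0.03 above that of the 8 sterol enzymes (SD of the libraries, n = 2), a 2.72-fold difference, with 1.47 in replicate 1 and 1.42 in replicate 2. The synthesis enzymes were 1.31 ± 0.05 above the 7 transport and export genes, a 2.48-fold difference, with 1.28 and 1.35. These differences exceeded the spread between the pools, which does not measure the spread among the genes of a list. The lists overlapped. Msmo1 and Cyp51 of the sterol steps lay above Mvk, Pmvk, Mvd, Idi1 and Lss. The transport and export genes ran from 2.00 TPM (Nr1h3) to 205 TPM (Apoe). The difference between synthesis and transport was 0.48 on CPM, which scales reads to library size without correction for transcript length. Against 9 genes of fatty acid synthesis, the pathway served by the related factor SREBP-1, the synthesis enzymes were 0.28 ± 0.07 higher by median, with 0.24 and 0.33. That difference was 0.88 between means over the genes and -0.17 on CPM, so its direction depended on the scale.

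**Figure D2:**
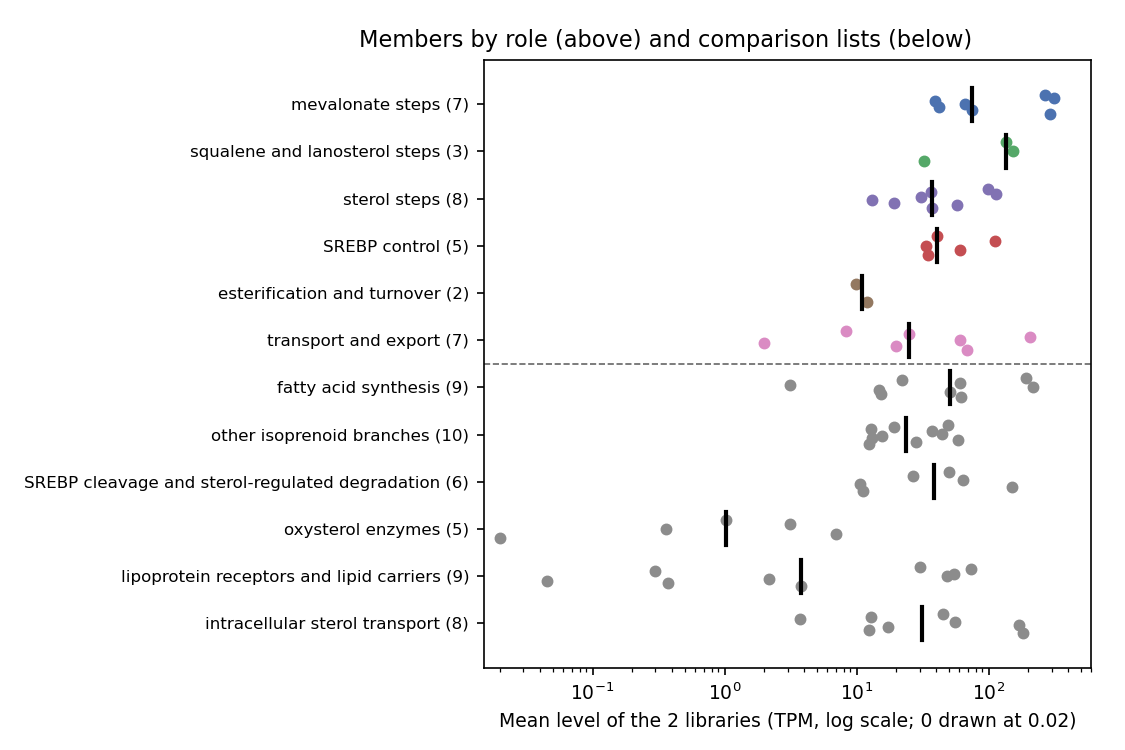
Mean level of each gene over the 2 libraries (TPM, log scale) for the 6 roles of the 32 genes, in colour, and for 6 lists of related genes, in grey, with the number of genes in brackets and a black bar at each median. The squalene and mevalonate steps have the highest medians, 136 and 74.7 TPM, and the transport and export genes spread from 2.00 TPM (Nr1h3) to 205 TPM (Apoe).

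The genes that control synthesis were all between 32.7 and 111 TPM. Srebf2, which encodes SREBP-2, had 111 TPM in both libraries, on 12724 and 11658 reads. Srebf1, which encodes SREBP-1, the factor known mainly for fatty acid genes, had 38.7 and 42.2 TPM. Srebf2 was 1.46 ± 0.09 above Srebf1 on the log2 scale, 2.74-fold, with 1.52 and 1.39. With only protein-coding transcripts summed the difference was 2.16, and on CPM it was 2.46, so Srebf2 was higher under each of these scales. Scap had 34.0 and 33.5 TPM. Insig1, the INSIG gene that SREBP itself induces, had 60.4 and 60.3 TPM, against 36.8 and 32.7 TPM for Insig2. Insig1 was 0.80 ± 0.12 above Insig2, 1.74-fold, with 0.71 and 0.88.

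The promoters of the SREBP genes are shown because Srebf1 has more than 1 annotated start. In mouse, SREBP-1a is known to come from an upstream start of the gene and SREBP-1c from a downstream one, and the forms differ in their first exon. The deposited tables name transcripts and do not name these forms. The Srebf2 window lies at chr15:82147019-82147318 on the plus strand. Of 3 RefSeq windows of Srebf1, those at the starts of its main coding transcripts are printed. The upstream one of these lies at chr11:60220578-60220877 and the downstream one at chr11:60210422-60210721, both on the minus strand, and their starts lie 23 bases from that of transcript Srebf1-201 and 6 bases from that of Srebf1-207.
Srebf2: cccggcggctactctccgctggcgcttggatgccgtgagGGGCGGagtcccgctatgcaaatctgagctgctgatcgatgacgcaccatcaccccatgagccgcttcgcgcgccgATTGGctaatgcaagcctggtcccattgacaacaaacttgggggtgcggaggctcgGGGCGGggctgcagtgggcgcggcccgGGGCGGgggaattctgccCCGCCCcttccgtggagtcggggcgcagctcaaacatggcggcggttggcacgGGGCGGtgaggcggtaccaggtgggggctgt
Srebf1 upstream: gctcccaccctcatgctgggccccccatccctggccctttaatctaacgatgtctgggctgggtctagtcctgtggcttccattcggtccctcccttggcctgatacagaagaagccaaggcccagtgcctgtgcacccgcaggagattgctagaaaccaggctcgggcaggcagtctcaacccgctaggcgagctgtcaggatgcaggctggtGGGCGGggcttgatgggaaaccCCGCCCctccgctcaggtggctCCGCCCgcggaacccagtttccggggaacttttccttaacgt
Srebf1 downstream: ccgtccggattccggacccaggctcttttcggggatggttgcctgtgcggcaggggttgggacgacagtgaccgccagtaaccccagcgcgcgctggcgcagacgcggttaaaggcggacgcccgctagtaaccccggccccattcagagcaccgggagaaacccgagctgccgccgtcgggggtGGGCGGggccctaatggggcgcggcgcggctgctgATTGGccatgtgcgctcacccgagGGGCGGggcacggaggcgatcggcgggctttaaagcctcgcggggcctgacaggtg
The Srebf2 window held 5 GC boxes and 1 CCAAT box. The first of the printed Srebf1 windows held 3 GC boxes and no CCAAT box, and the second held 2 GC boxes and 1 CCAAT box, centred 28 bases before the start. The Srebf1 window not printed, at the start of Srebf1-204, held 1 CCAAT box and no GC box. None of these windows held an exact sterol regulatory element. With 1 mismatch allowed, the Srebf2 window held 1 and the Srebf1 windows held none.

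Reads were assigned to transcripts from both starts of Srebf1 in both pools. Srebf1-201, whose start lies 1977 bases downstream of the first annotated one, had 11.9 and 13.1 TPM, on 1174 and 1184 reads. Srebf1-207, whose start lies 12116 bases downstream, had 8.46 and 10.3 TPM, on 610 and 683 reads. Srebf1-201 was 0.42 ± 0.11 above Srebf1-207 on the log2 scale, with 0.49 and 0.34. The annotated models share most exons, and Srebf1-201 also runs on into a last exon that Srebf1-207 lacks, 4299 against 3177 bases, so the estimate rests on how shared reads were divided. Srebf1-203, which starts in a shared exon 15393 bases downstream, had 3.74 and 2.13 TPM. A short noncoding entry from the first start, Srebf1-204 of 367 bases, was assigned 10.2 and 12.3 TPM on 64 and 71 reads. It held 26.4% and 29.3% of the gene's TPM and 2.85% and 3.27% of its reads.

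**Figure D3:**
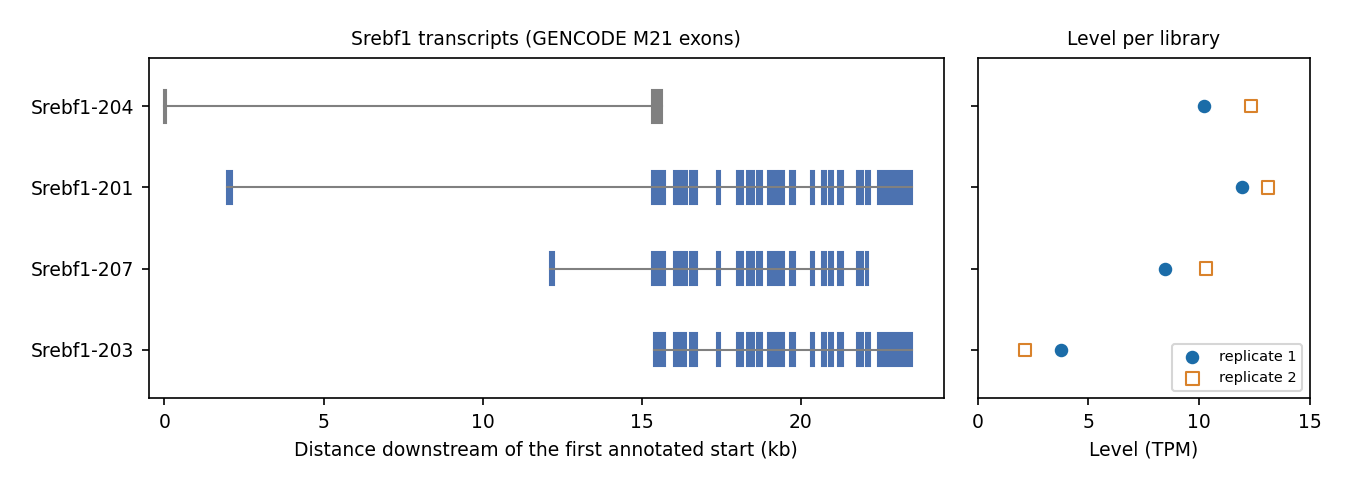
Left, exons (boxes) of 4 Srebf1 transcripts by distance downstream of the first annotated start (kb), with the noncoding Srebf1-204 in grey. Right, the level of each (TPM) in replicate 1 (filled circles) and replicate 2 (open squares): Srebf1-201 lies at 11.9 and 13.1 TPM and Srebf1-207 at 8.46 and 10.3 TPM.

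Insig2 also has separate starts. Its transcripts from the first annotated start, Insig2-202 and Insig2-209, had 0 reads in both libraries. The reads were assigned to transcripts that start 4565 bases or more downstream, led by Insig2-201 at 18.8 and 19.1 TPM and Insig2-208 at 13.2 and 11.5 TPM.

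Esterification and turnover were at low levels. Soat1, the enzyme that esterifies cholesterol for storage, had 9.85 and 10.0 TPM. Cyp46a1, the neuronal 24-hydroxylase that lets cholesterol leave the adult brain as an oxysterol, had 10.6 and 13.5 TPM, on 499 and 585 reads. The log2 ratio of Soat1 over Cyp46a1 was -0.26 ± 0.23, with -0.10 and -0.43, which is close to the spread between the pools, and on CPM it was 1.14, in the other direction.

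By fold difference, the transport and export genes spanned the widest range of the 6 roles of the members. Apoe, the main apolipoprotein of the brain, had 217 and 194 TPM, a mean of 205 ± 16.4 TPM, higher than 94.5% of the detected protein-coding genes. The median log2 ratio of replicate 1 over replicate 2 was 0.85 for the choroid plexus markers, 0.13 for the red cell markers and 0.04 for the radial glial markers, of which 3 of 5 were higher in replicate 1. The medians were 0.14 for astrocyte markers, of which 2 of 5 were detected, and 0.02 for microglial markers. For endothelial and pericyte markers they were -0.10 and -0.06. The part of these cells in the level of Apoe was not tested. The Apoe gene lies at 19696109 to 19699188 on chromosome 7, minus strand. Its first promoter window, chr7:19699139-19699438 on the minus strand, is shown because it holds no exact match of the 3 motifs and therefore no capitals. With 1 mismatch allowed, it holds 1 match of the sterol regulatory element.
Apoe: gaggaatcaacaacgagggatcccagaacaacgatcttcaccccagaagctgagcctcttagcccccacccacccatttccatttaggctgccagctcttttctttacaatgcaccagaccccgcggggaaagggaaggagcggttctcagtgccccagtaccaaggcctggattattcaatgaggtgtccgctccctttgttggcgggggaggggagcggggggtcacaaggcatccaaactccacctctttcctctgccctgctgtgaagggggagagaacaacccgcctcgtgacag
The lipid exporters were much lower than Apoe. Abca1, which loads cholesterol onto lipid-poor apolipoproteins, had 8.33 and 8.41 TPM, and Abcg1, which exports to formed particles, had 25.4 and 24.4 TPM. The log2 ratio of Abca1 over Abcg1 was -1.56 ± 0.05, a ratio of 0.339. On CPM it was -0.030, and the estimated lengths were 10140 bases for Abca1 and 3573 bases for Abcg1 in replicate 1.

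The liver X receptors sense oxysterols and induce the exporters and Apoe. Nr1h2, which encodes LXR beta, had 57.9 and 64.4 TPM, on 2310 and 2345 reads. Nr1h3, which encodes LXR alpha, had 1.65 and 2.34 TPM, on 60 and 83 reads, with 95% counting intervals (exact Poisson, covering counting error only) of 1.26 to 2.12 TPM and 1.86 to 2.90 TPM. Nr1h2 was 4.89 ± 0.23 above Nr1h3 on the log2 scale, 29.6-fold, with 5.05 and 4.72. Nr1h2 was the higher of the pair in both libraries.

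The Niemann-Pick C proteins take cholesterol out of the lysosome. Npc2, the soluble carrier, had 66.7 and 71.5 TPM, and Npc1, its membrane partner, had 19.6 and 20.3 TPM. Npc2 was 1.79 ± 0.03 above Npc1 on the log2 scale, 3.45-fold, with 1.76 and 1.81. A short noncoding entry, Npc1-203 of 352 bases, held 22.9% and 25.7% of the TPM of Npc1 on 1.44% and 1.69% of its reads, and with only protein-coding transcripts summed the difference was 2.37.

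In the order of the 32 genes by mean TPM, some neighbours were separated in the 2 libraries and others were not. That order holds on TPM only. Cyp46a1 and Soat1, a separated pair, were in the other direction on CPM. Of the 31 pairs of neighbours in that order, 13 had library values that overlapped. These were Msmo1 with Srebf2, Npc2 with Pmvk, Nr1h2 with Insig1, Npc1 with Ebp, Hsd17b7 with Cyp46a1, and the run of Mvd, Srebf1, Mvk, Dhcr7, Tm7sf2, Insig2, Scap, Lss and Nsdhl, whose neighbours cannot be ordered.

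The genes differed in how their reads fell on transcripts. Of the 32 genes, 9 have 1 annotated transcript and 18 had a leading transcript with at least 90% of the gene's TPM in both libraries. The leading transcript held under 60% in at least 1 library for 10 genes, where 32% of the detected protein-coding genes were in that state, so the members were close to the background. These genes were Lss, Tm7sf2, Msmo1, Hsd17b7, Ebp, Srebf1, Insig2, Soat1, Nr1h2 and Nr1h3. The median share of TPM on protein-coding transcripts was 99.1% for the members and 98.0% for the detected genes.

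Lss had the lowest protein-coding share, 52.5%. Its coding transcript Lss-201 had 16.0 and 16.2 TPM, while the retained-intron entry Lss-204 had 4.51 and 4.53 TPM on 727 and 671 reads, 27.0% and 26.0% of the reads of the gene. Tm7sf2 was split over several coding and retained-intron entries, led by the coding Tm7sf2-201 at 14.3 and 16.2 TPM, and its protein-coding transcripts summed to 23.3 and 21.9 TPM. It overlaps Vps51 on the same strand by 532 bases, so its reads could be shared with that gene. Msmo1 had 73.8 and 63.2 TPM on its coding transcript Msmo1-201, and 37.7 and 36.5 TPM on Msmo1-206, a processed transcript of 1329 bases. The TPM on protein-coding transcripts was below the gene total for these 3 genes in both libraries.

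Short entries differed between the pools. Hsd17b7-204, a processed transcript, had 3.71 and 6.01 TPM, and Ebp-203, a short coding entry, had 3.59 and 6.85 TPM. Hsd17b7 and Ebp had lower TPM in replicate 1 while their read counts, scaled to library size, were slightly higher there, by 0.03 and 0.06 on the log2 scale. The nonsense-mediated decay entry Dhcr7-210 had 2.99 and 7.18 TPM on 44 and 96 reads. For Nr1h2 the leading transcript itself differed, Nr1h2-204 with 22.1 TPM in replicate 1, where Nr1h2-201 had 10.1 TPM, and Nr1h2-201 with 15.6 TPM in replicate 2, where Nr1h2-204 had 14.6 TPM. No other member had a different leading transcript in the 2 libraries.

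**Figure D4:**
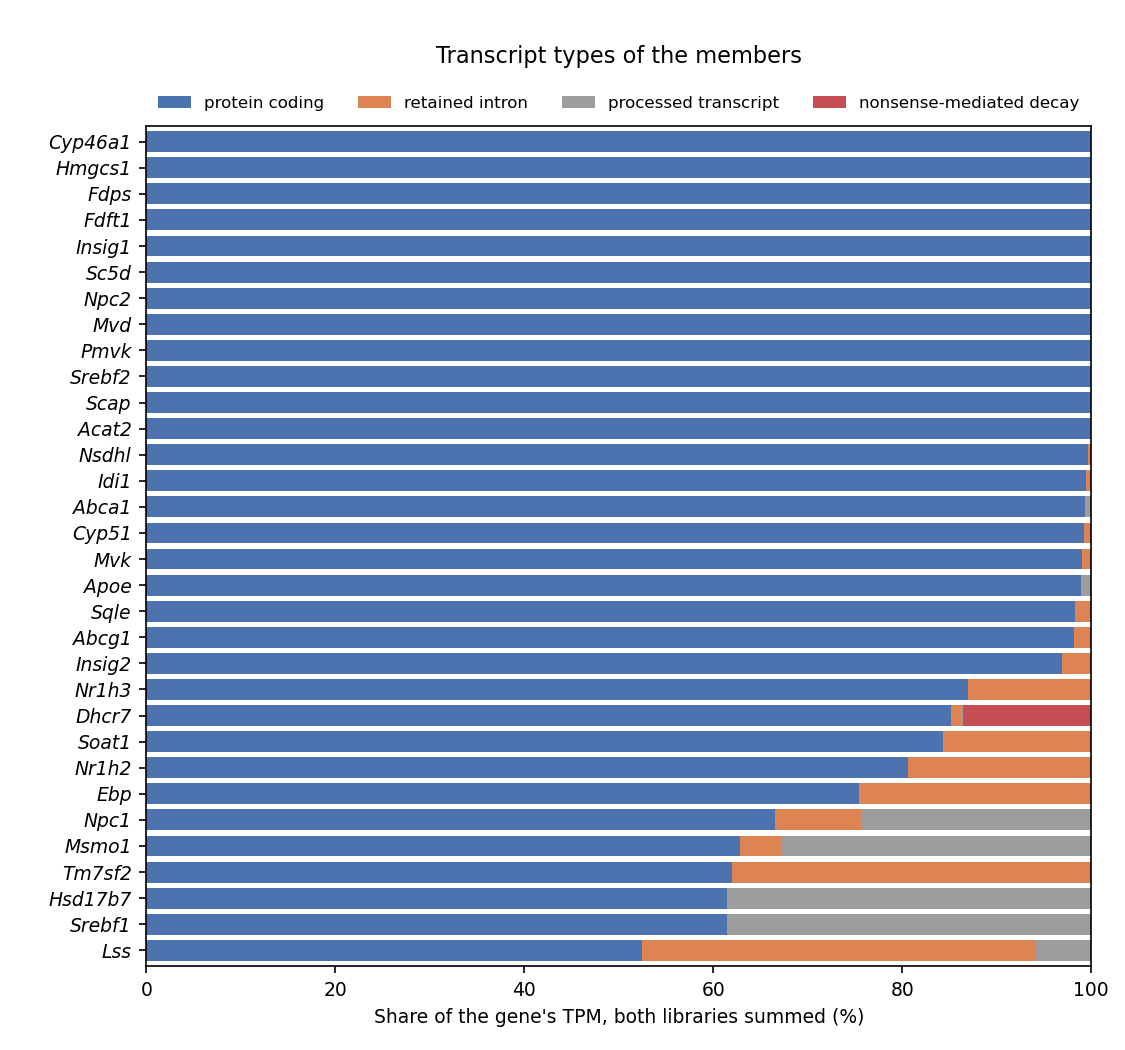
Share of each gene's TPM, summed over both libraries (%), on transcripts of each annotated type, with genes ordered by their protein-coding share. The share is at or near 100% for most genes and 52.5% for Lss, where retained-intron entries make up most of the rest.

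Between the pools the pathway differed little. After scaling by TMM factors, the log2 ratio of replicate 1 over replicate 2 had a median of -0.02 over the 18 synthesis enzymes, with a lowest value of -0.09 (Lss) and a highest of 0.15 (Msmo1), and 7 were positive and 11 negative. The coefficient of biological variation over all 19165 genes with 10 or more summed reads was 0.0638. A ratio beyond 0.5 in size was found for 1 of the 32 genes, against 13.7% of these 19165 genes. This gene was Nr1h3 at -0.61, on the 60 and 83 reads given above. The 19165 genes reach down to 10 summed reads, so these shares are not at like levels. Among the 29 genes at 10 TPM or more, Cyp46a1 at -0.37 was the 1 gene outside the range that holds 95% of 8928 protein-coding genes of that level, -0.23 to 0.21. Such a range leaves a share of these genes outside by construction, so 1 of 29 does not set the members apart. Apoe had 0.15 and Nr1h2 had -0.16, both inside that range. The choroid plexus and liver markers that moved between the pools are given above, and their part in these ratios was not tested.

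**Figure D5:**
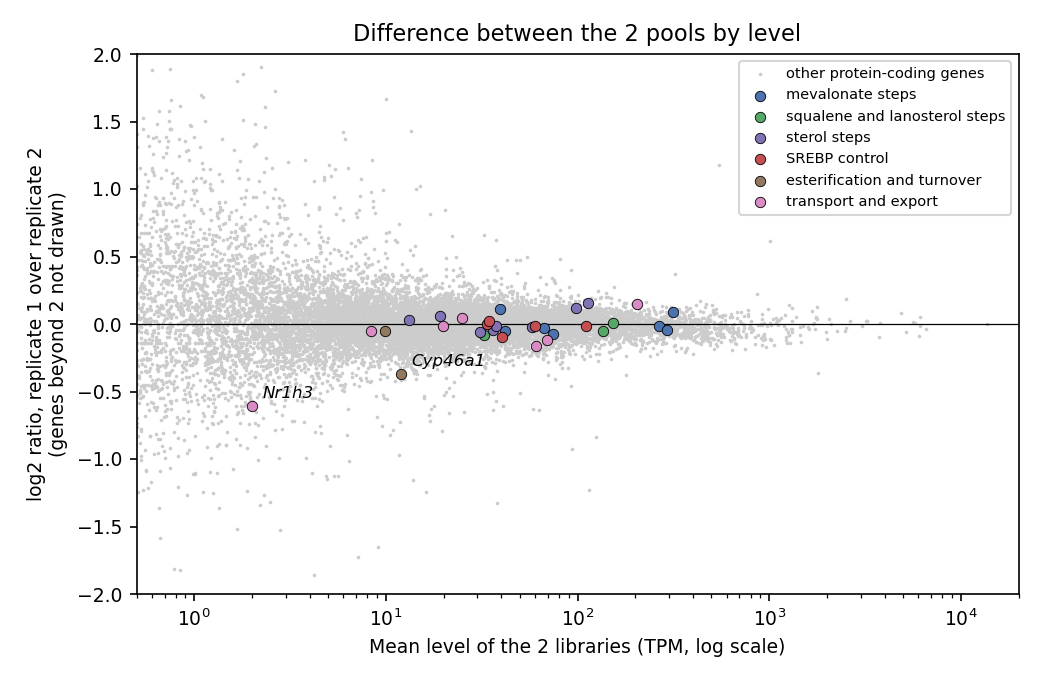
Log2 ratio of replicate 1 over replicate 2 against the mean level (TPM, log scale) for the protein-coding genes (grey) and for the 32 genes coloured by role. The members lie near 0 except Cyp46a1 at -0.37 and Nr1h3 at -0.61.

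Reads that fit several genes were divided in the tables, and 24 of the 32 genes had whole counts in both libraries (within 0.005). Acat2, Idi1, Fdps, Fdft1, Lss, Tm7sf2, Scap and Npc1 had counts with a fraction, which shows reads divided with other genes, and their levels are less certain. The annotated span of Fdft1 overlaps that of Ctsb on the opposite strand by 774 bases. The span of Cyp51 overlaps Akap9 by 166, Srebf1 overlaps Rai1 by 109, Npc1 overlaps Rmc1 by 967 and Insig2 overlaps Gm37174 by 3058. Whether exons overlap in these stretches was not examined. How strand was treated in the counting is not stated, so the assignment of reads in these stretches may be less certain. Of these genes, Fdft1 and Npc1 had counts with a fraction, and Cyp51, Srebf1 and Insig2 had whole counts.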

How the data were processed

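Total RNA longer than 200 nucleotides from 2 pools of forebrain was sequenced, per the labels' protocols, with 10 ng and spike-in transcripts per library. Reads were aligned to the transcriptome of mm10 with GENCODE M4 models, per the file headers and deposited notes; aligner, quantifier, priming and strand setting are not stated there. Expected counts, as deposited, estimate the reads of each gene or transcript, with ambiguous reads divided. TPM, as deposited, corrects them for effective length and scales each library to a fixed sum. The percent values of the authors give a transcript's share of its gene. Levels here use the maximum-likelihood TPM, with the posterior mean as an alternative.

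Gene symbols were found for 42462 of 43346 genes, and 26248 transfer RNA entries were left out. GENCODE M21, on the same assembly but with other gene models, supplied transcript names and coordinates. The 32 members, the lists and the alternatives were chosen with earlier results of these data known. The text names every member, the 3 highest genes and the lowest of each comparison list, and members whose leading transcript held under 60% or changed. Some genes that this rule or the marker lists name are not reported here. Npc1-203, Dhcr7-210 and the genes overlapping members were chosen after their values were seen.

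Detection means 1 TPM or more in both libraries. List levels are medians of log2(TPM + 0.1) of the mean TPM, and pair ratios are means over the libraries of the same scale; folds are powers of these differences and understate changes of low genes. Errors are SDs of the single-library values. For the ratio between the pools, rounded expected counts were scaled by TMM (edgeR 4.0.16, R 4.3.3) in genes with 10 or more summed reads after adding 0.5 reads, with an intercept-only common dispersion. No difference was tested. The steps were tested on simulated data. Promoters are RefSeq windows (GRCm38.p6). Alternatives were DESeq2 1.42.0 size factors, spike-in totals, no count filter, 2 added reads, posterior mean TPM, other pseudocounts and thresholds, means over genes, coding transcripts, CPM computed from the deposited expected counts, and single libraries. Python 3.11.15 was used with matplotlib 3.10.9, pandas 2.3.3, numpy 2.4.6 and scipy 1.17.1.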

Additional observations from a re-analysis of the deposited data

How the results depend on the processing

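No paired analysis was possible because the samples form 1 group. Of the recomputed values, 61 kept their direction and moved by less than the spread between the libraries or, for counts, by less than 1.5 times, 24 moved by more and 2 changed direction. Part of the 61 was fixed in advance. Dropping 1 of 2 libraries moves a difference by less than their SD. Leaving out members below 1 TPM changed nothing, since no member was below that level. The count of 61 is therefore not a measure of stability. All differences below are on the log2 scale. CPM without length correction gave 0.48 for synthesis over transport, 1.90 for mevalonate and squalene over sterol enzymes, -0.17 for synthesis over fatty acid synthesis (reversed), 2.46 for Srebf2 over Srebf1, 1.28 for Insig1 over Insig2, -0.030 for Abca1 over Abcg1, 1.47 for Npc2 over Npc1 and 1.14 for Soat1 over Cyp46a1 (reversed). Protein-coding transcripts alone gave 1.67 for mevalonate and squalene over sterol enzymes, 2.16 for Srebf2 over Srebf1, 2.37 for Npc2 over Npc1 and -0.51 for Soat1 over Cyp46a1, and 5 members with a leading transcript under 60%, which a limit of 50% put at 6. Means over genes gave 1.40, 1.36 and 0.88 for the 3 list differences in that order. Posterior means gave 1.38 for mevalonate and squalene over sterol enzymes, 0.59 for Insig1 over Insig2 and 4.54 for Nr1h2 over Nr1h3. A pseudocount of 1 TPM gave 4.38 for Nr1h2 over Nr1h3, -1.47 for Abca1 over Abcg1 and 1.74 for Npc2 over Npc1. Spike-in scaling, which shifted the median of all genes by -0.20, gave -0.22 for the synthesis enzymes between the pools and 2 members beyond 0.5. With 1 mismatch, 7 enzymes held a sterol regulatory element. The cause of these shifts was not tested, beyond the lengths and transcripts that each alternative leaves out. Single libraries gave 1.28 to 1.35 for synthesis over transport, 1.42 to 1.47 for mevalonate and squalene over sterol enzymes, 0.24 to 0.33 for synthesis over fatty acid synthesis, and 4.72 to 5.05 for Nr1h2 over Nr1h3. Depth limits Nr1h3 most, at 60 and 83 reads.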

Other observations

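Genes next to the pathway were also measured in both libraries. Among the genes of SREBP cleavage and sterol-regulated degradation, Ubxn1 had 152 and 149 TPM, Mbtps1, the site-1 protease that cleaves SREBP, had 50.2 TPM in both libraries, and Rnf139 had 10.4 and 10.8 TPM. The other isoprenoid branches, which draw on the products of the mevalonate steps, had 10 of 10 genes at 10 TPM or more with a median of 23.7 TPM. Their highest were Fnta (60.8 and 57.4 TPM), a subunit of protein prenyltransferases, Ggps1 (49.8 and 48.3 TPM), the geranylgeranyl pyrophosphate synthase, and Dhdds (45.9 and 42.2 TPM), of dolichol synthesis, and Pggt1b was lowest at 12.7 and 12.1 TPM. Of fatty acid synthesis 9 of 9 were at 1 TPM or more, led by Scd2 (222 and 209 TPM), Acly (191 and 196 TPM) and Acsl3 (63.3 and 60.9 TPM), with Scd1 lowest at 3.36 and 2.88 TPM.

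The oxysterol enzymes were low. Of 5 genes, 2 were at 1 TPM or more in both libraries, Hsd3b7 (7.14 and 6.81 TPM) and Cyp7b1 (3.56 and 2.72 TPM). Cyp27a1 had 1.31 and 0.75 TPM, and Cyp7a1, the bile acid enzyme of the liver, had 0 reads in both. Of the lipoprotein receptors and lipid carriers 6 of 9 were at 1 TPM or more, with Lrp8, an Apoe and reelin receptor, at 71.0 and 76.8 TPM, Clu at 64.5 and 44.9 TPM, Apod at 46.6 and 50.1 TPM and Apob lowest at 0.04 and 0.05 TPM. Genes of intracellular sterol transport were detected in 8 of 8 cases, led by Scp2 (189 and 178 TPM), Gramd1a (171 and 167 TPM) and Osbpl2 (55.8 and 54.7 TPM), with Osbp lowest at 3.47 and 3.97 TPM.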
